A study of Rattus norvegicus with 32 samples.

Results

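The anaphase-promoting complex (APC) genes described here are Anapc1, Anapc2, Anapc4, Anapc5, Anapc10, Cdc16, Cdc23, Cdc26, Cdc27 and Cdc20. They were taken as every transcript probe whose gene name on the array was one of these 10 names, which gave 10 of the 26583 gene names printed. Anapc1 was represented by 2 probes, one of them printed 10 times, and each of the other genes by 1 probe. The names Anapc10, Cdc26 and Cdc20 had been singled out by the study from these same samples, so that their values are no independent evidence of a direction. The same holds for Ccnb1, Nek2 and Bub1b, which are counted in the gene lists further below.

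The cells were C6, a rat glioma line, grown with serum until confluent. Groups of 4 arrays were treated for 3 h or 6 h, with no addition (Control), with 100 nM angiotensin II (Ang II), or with 100 nM Ang II after 30 min with 10 µM of an antagonist. The antagonist was either losartan, which blocks the AT1 receptor (Ang II+Los), or PD123319, which blocks the AT2 receptor (Ang II+PD123319). All 32 arrays thus come from 1 cell line, and no group analysed here received an antagonist without Ang II. The labels do not say whether replicates were separate cultures, so p-values measure the spread between these samples, which may be technical.

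The APC is a ubiquitin ligase of many subunits that marks mitotic proteins for destruction by the proteasome. It drives the separation of sister chromatids and the exit from mitosis, mainly by removing securin and the mitotic cyclins. It works with an activator that brings substrates, Cdc20 in early mitosis and Fzr1 (Cdh1) later, and the spindle checkpoint restrains it by holding Cdc20 until all chromosomes are attached.

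RefSeq promoters, in the GRCr8 build, were read for the 250 bases before the transcription start. A promoter was listed for 8 of the 10 genes, and Anapc4 and Cdc16 were the others. The promoters below belong to 4 of the 5 genes that were higher after 6 h of Ang II, and the one of Anapc1, which held none of the words searched, is not printed. They are shown because mitotic genes are often grouped by such elements. Capitals mark TTTGAA, a common form of the cell cycle genes homology region, and CCAAT, the site bound by NF-Y, each searched on both strands.
Cdc20 (chr5:137255800-137256049, minus strand): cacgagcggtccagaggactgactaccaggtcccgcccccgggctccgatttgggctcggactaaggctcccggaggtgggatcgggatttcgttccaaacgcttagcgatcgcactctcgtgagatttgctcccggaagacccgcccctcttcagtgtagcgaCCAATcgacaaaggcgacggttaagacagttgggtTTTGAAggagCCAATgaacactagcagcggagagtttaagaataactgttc
Cdc26 (chr5:80875327-80875576, minus strand): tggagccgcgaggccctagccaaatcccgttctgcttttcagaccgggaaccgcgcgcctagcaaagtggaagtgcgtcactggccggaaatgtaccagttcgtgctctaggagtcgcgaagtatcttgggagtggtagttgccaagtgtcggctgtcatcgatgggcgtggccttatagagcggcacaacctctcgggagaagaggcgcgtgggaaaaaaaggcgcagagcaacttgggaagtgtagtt
Cdc27 (chr10:89949771-89950020, minus strand): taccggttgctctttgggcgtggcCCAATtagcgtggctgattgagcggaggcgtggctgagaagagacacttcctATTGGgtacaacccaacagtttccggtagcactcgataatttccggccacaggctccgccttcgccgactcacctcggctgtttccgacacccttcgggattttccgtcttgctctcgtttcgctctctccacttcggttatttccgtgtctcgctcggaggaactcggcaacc
Anapc10 (chr19:45109883-45110132, minus strand): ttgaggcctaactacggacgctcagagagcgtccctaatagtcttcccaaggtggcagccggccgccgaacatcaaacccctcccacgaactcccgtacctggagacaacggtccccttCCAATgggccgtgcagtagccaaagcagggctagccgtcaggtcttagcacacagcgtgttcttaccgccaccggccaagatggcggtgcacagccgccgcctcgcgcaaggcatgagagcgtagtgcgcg
The Cdc20 promoter held TTTGAA between bases 51 and 46 before the start and CCAAT both at 86 to 82 and at 41 to 37. TTTGAA was in 1 of the 8 promoters and in 16.2% of all 33469 promoters of this length. CCAAT was in 5 of the 8, those of Anapc5, Anapc10, Cdc23, Cdc27 and Cdc20, and in 34% of all promoters. The E2F-like words, which read TTCCCGC or else TTGGCGC in one pair and TTCGCGC or else TTGCCGC in the other pair, also on both strands, were in 0 of the 8 and in 7.59% of all. No match overlapped another in these windows, and the Cdc26 window held none. A match is a description of the letters only.

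The Cdc20 and Cdc27 measurements rest on the following 60-base probes, shown because each is the only probe of its gene and both span more of the genome than their length.
Cdc20 probe: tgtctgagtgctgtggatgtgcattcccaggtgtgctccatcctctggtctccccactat
Cdc27 probe: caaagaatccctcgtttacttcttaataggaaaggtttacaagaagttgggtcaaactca
In the rn4 build of the array the Cdc20 probe lies at chr5:138913267-138914237 on the minus strand and the Cdc27 probe at chr10:93680553-93681696 on the minus strand. With spans of 971 and 1144 bases, both cross at least 1 splice junction. The Cdc26 probe lies unbroken at chr5:79390908-79390967 and the Anapc10 probe at chr19:30041891-30041950, both on the minus strand.

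Each slide carried 1 array of each group of a given time, and within a time the slide is the replicate number. Slides 1 to 4 at 3 h and slides 1 to 4 at 6 h are different slides, read in different scans. Time can therefore not be told apart from slide, scan or the handling of dim spots. Array position followed the treatment on every slide, so that position and treatment cannot be told apart. Between 55.9% and 64.7% of the spots of an array were well above background at 3 h, and between 64.2% and 79.8% at 6 h. Of the glial markers looked up, S100b, Vim, Nes and Cspg4 were well above background on 32 of 32 arrays and Olig1 on 31, whereas Gfap was so on 2 and Slc1a3 on 0. Of the markers of other cell types, Ptprc, Pecam1 and Syt1 were so on 0 arrays and Rbfox3 on 3, whereas Cd68 and Aif1 were so on 32 and Cdh5 on 28. In bulk samples fewer cells of a type and less RNA per cell cannot be told apart.

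The first question of the design was which genes Ang II changed. At 6 h, 5 of the 10 APC genes rose in Ang II × Control and 0 fell, at an unadjusted p under 0.05 in limma with the slide as a block. By the same rule 10.6% of all 16448 genes tested were higher and 10.9% lower. The 5 were the activator Cdc20, the substrate-recognition subunit Anapc10, the subunits Cdc27 and Cdc26 of the arm that binds activators, and the scaffold subunit Anapc1, with folds between 1.12 and 1.29. Cdc20, Anapc10 and Cdc26 are the names that the study had singled out from these samples. Of the other subunits and activators on the array, listed further below, 0 of 5 passed at 6 h, with a median of 0.03. After Benjamini-Hochberg adjustment 0 of the 10 passed, as did 0% of all genes, and the lowest adjusted p of an APC gene was 0.0844. The log2 fold change was above 0 for 8 of the 10 genes, against 48.7% of all genes, and its median was 0.15 against -0.01. In 5 of the 10 it was above 0 on 4 of 4 slides, which was so for 12.2% of all genes. With the slides left unpaired 0 of the 10 passed, and 4.02% of all genes did.

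**Figure D1:**
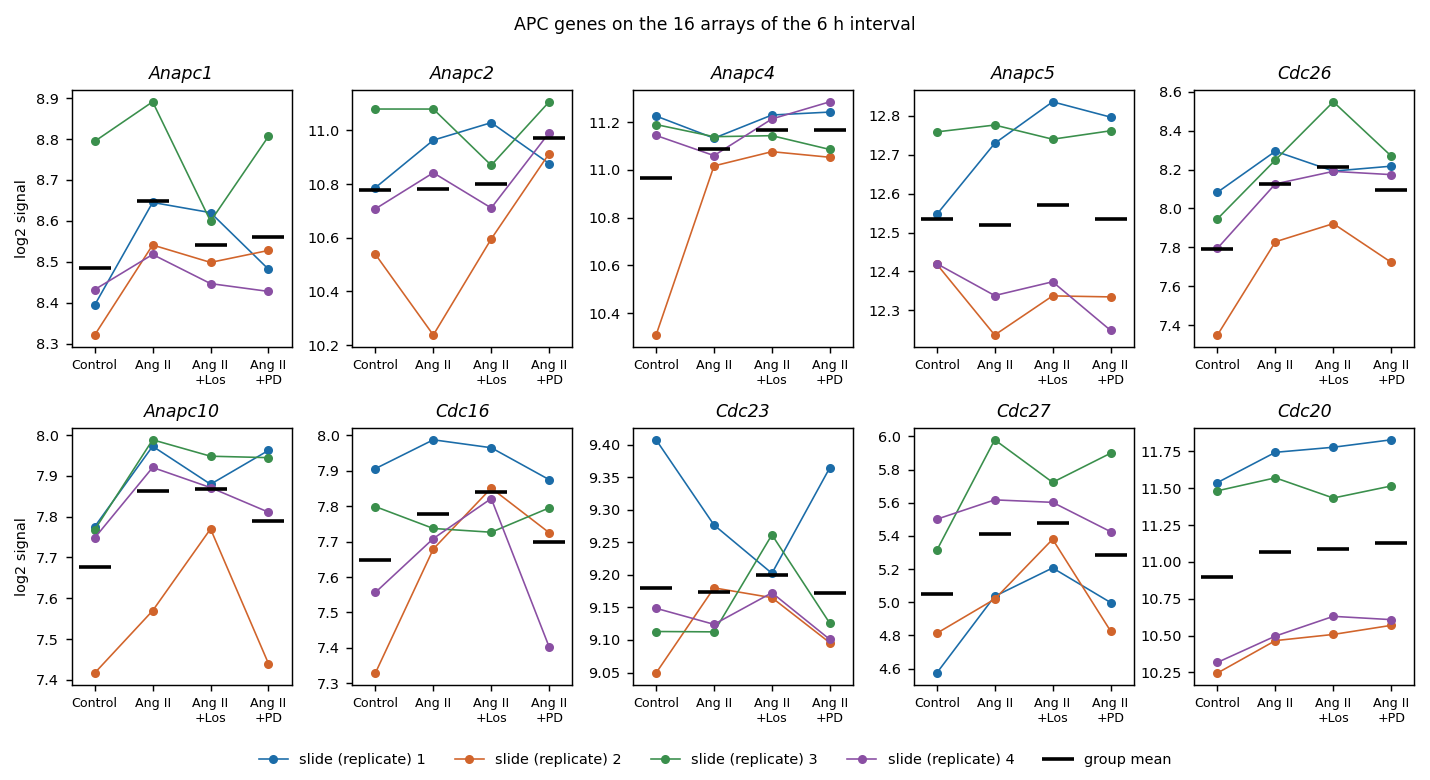
Log2 signal of each APC gene (vertical axes, one scale per gene) on the 16 arrays at 6 h, by group, where lines join the 4 arrays of a slide and black bars are group means. For Cdc20 the lines lie between 10.25 and 10.63 on slides 2 and 4 and between 11.43 and 11.83 on slides 1 and 3, and each line steps up from Control to Ang II.

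Cdc20, the activator that brings early mitotic substrates to the complex, had log2 signals of 11.54, 10.25, 11.48 and 10.32 in Control and 11.74, 10.47, 11.57 and 10.50 in Ang II at 6 h, in the order of slides 1 to 4. Slides 2 and 4 were low and slides 1 and 3 high in both groups, and the groups overlapped, with means of 10.90 ± 0.71 and 11.07 ± 0.68 (SD over 4 arrays). The gene was higher by 0.17 ± 0.07 in log2 fold change (SE; limma, adjusted p = 0.170). It missed the unadjusted threshold without replicate 1, 2 or 4, at 0.16, 0.16 and 0.17.

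Anapc10, the subunit that helps to recognise the degrons of substrates, had 7.78, 7.42, 7.77 and 7.75 in Control and 7.97, 7.57, 7.99 and 7.92 in Ang II. Slide 2 was lowest in both groups, the other slides lay close together, and the groups overlapped through slide 2 alone. The log2 fold change was 0.19 ± 0.07 (SE; limma, adjusted p = 0.154), with slides between 0.15 and 0.22. It missed the unadjusted threshold without replicate 3 (0.17) or replicate 4 (0.19).

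Cdc26 is a small subunit that holds Cdc16 in its folded form. Its log2 signals were 8.08, 7.35, 7.95 and 7.80 in Control and 8.29, 7.83, 8.25 and 8.13 in Ang II. The Control array of slide 2 was the lowest of the 16 arrays, and the groups, with means of 7.79 ± 0.32 and 8.12 ± 0.21 (SD over 4 arrays), overlapped. In log2 fold change Cdc26 was higher by 0.33 ± 0.08 (SE; limma, adjusted p = 0.0844), and it had the lowest p of the 10. Without each replicate in turn it still passed the unadjusted threshold, with values between 0.28 and 0.37.

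Cdc27, a subunit of the arm that binds activators, had 4.57, 4.81, 5.31 and 5.50 in Control and 5.04, 5.02, 5.98 and 5.62 in Ang II. Slides 3 and 4 were the higher ones in both groups, which overlapped. Cdc27 was the dimmest APC gene at 6 h, with a Control mean of 5.05, and the next lowest Control mean was 7.65 for Cdc16. The median of all probes over the arrays, before normalization, was 4.78. The Cdc27 probe was well above background on all 16 arrays at 6 h. The log2 fold change was 0.36 ± 0.12 (SE; limma, adjusted p = 0.138), and the slides ranged from 0.12 to 0.67. It missed the unadjusted threshold without replicate 1 (0.33) or replicate 3 (0.26), and with a normexp background, a model-based subtraction, it was 0.07 and did not pass. By the paired t-test that the series record names, Cdc27 did not pass either.

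Anapc1, the largest scaffold subunit, had 8.39, 8.32, 8.79 and 8.43 in Control and 8.65, 8.54, 8.89 and 8.52 in Ang II. Slide 3 was the highest in both groups, which overlapped. Together its probes gave a log2 fold change of 0.16 ± 0.07 (SE; limma, adjusted p = 0.214), and they gave 0.18 and 0.15 on their own, the second without passing. It missed the unadjusted threshold without replicate 1, 2 or 4, at 0.13, 0.14 and 0.19.

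The other 5 genes did not pass at 6 h. The arm subunits Cdc16 and Cdc23 had log2 fold changes of 0.13 (95% interval -0.08 to 0.34) and -0.01 (-0.15 to 0.14). Anapc2, the cullin-like catalytic subunit, had 0.00 (-0.24 to 0.25). The scaffold subunits Anapc4 and Anapc5 had 0.12 (-0.16 to 0.40) and -0.02 (-0.18 to 0.14). In Anapc4 the Control array of slide 2, at 10.31, stood below the other 15 arrays, which lay between 11.02 and 11.29. The Control and Ang II arrays overlapped for each of the 10 genes at 6 h, whereas 1.83% of all genes had groups that did not overlap.

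At 3 h, 9 of the 10 genes could be tested, and Cdc27 was the exception, with its probe above background on 8 of 16 arrays. Of these 9 genes 1 rose and 0 fell in Ang II × Control, and by the same rule 5.3% of all 13630 genes were higher and 7.4% lower. The one that rose was Anapc10, with log2 signals of 7.38, 7.07, 6.74 and 7.26 in Control and 7.70, 7.53, 6.88 and 7.46 in Ang II. Each slide was higher in Ang II, and the groups overlapped. Its log2 fold change was 0.28 ± 0.13 (SE; limma, adjusted p = 0.387). It missed the unadjusted threshold when any 1 replicate was left out, with values between 0.22 and 0.32, and with the slides left unpaired. The mean difference was 0.39 on the slides of scan 1 and 0.17 on those of scan 2. The groups overlapped for all 9 genes at 3 h, and for 1.41% of all genes they did not.

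Cdc16 had the largest value at 3 h, 0.57, with a 95% interval from -0.27 to 1.42. Its Control array of slide 1 was at 5.33 and the other 15 arrays lay between 7.10 and 8.16. On slides 1 to 4 the differences were 2.38, -0.03, -0.16 and 0.10, and without replicate 1 the log2 fold change was -0.03. Cdc26 had 0.28 (95% interval -0.26 to 0.81) and Cdc20 0.07 (-0.19 to 0.33), and the other values were -0.00 for Anapc1, 0.10 for Anapc2, -0.11 for Anapc4, 0.05 for Anapc5 and -0.19 for Cdc23.

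The difference between the times was tested over all 32 arrays for the 9 genes kept at both. In limma it passed in 0 of the 9 at an unadjusted p under 0.05, against 7.17% of all genes. The 6 h minus 3 h difference was 0.11 (95% interval -0.17 to 0.38) for Cdc20, 0.05 (-0.51 to 0.61) for Cdc26, 0.17 (-0.06 to 0.40) for Anapc1 and -0.09 (-0.38 to 0.19) for Anapc10. A pass at 6 h and not at 3 h is therefore not shown to be a difference between the times. The arrays of 3 h and of 6 h also lay on different slides and in different scans. In this test time cannot be told apart from these.

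**Figure D2:**
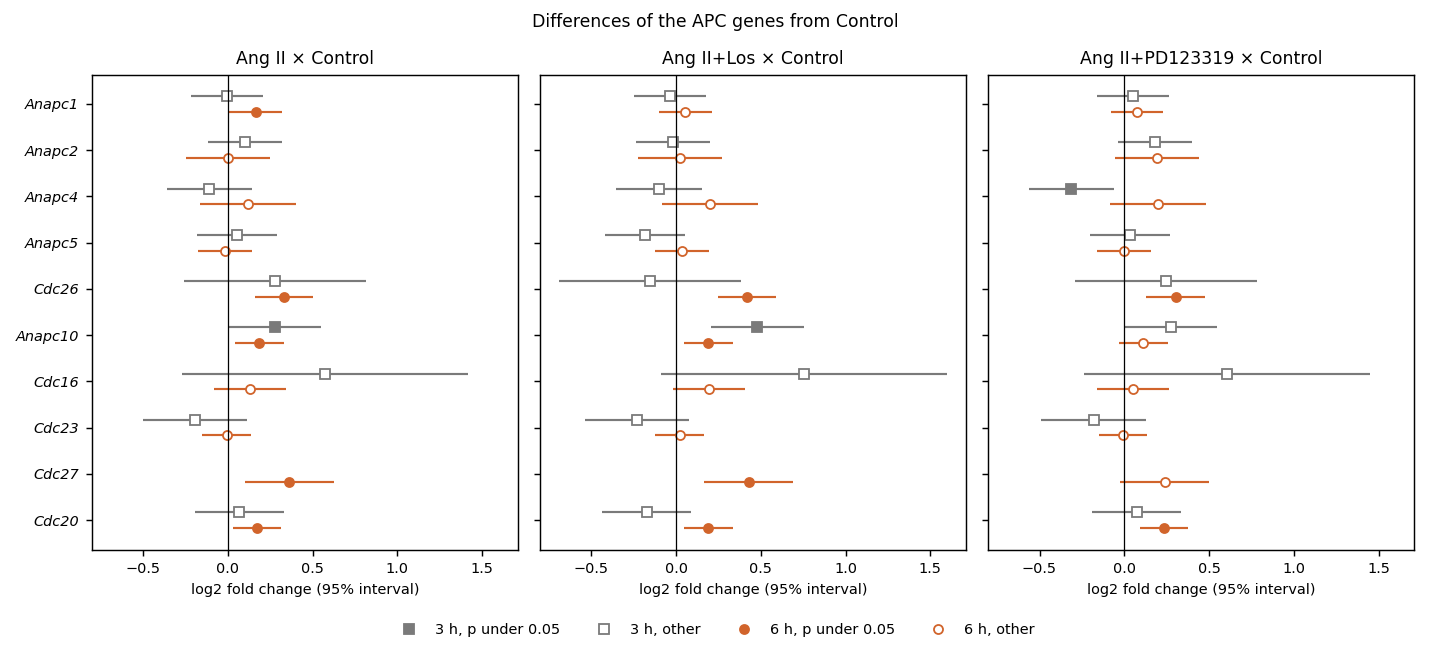
Log2 fold change (horizontal axis) of each APC gene from Control in the 3 treated groups, with 95% intervals from limma, where squares are 3 h, circles 6 h, and filled symbols have an unadjusted p under 0.05. At 6 h the Cdc26 and Cdc20 circles are filled in all 3 panels, at 0.33, 0.42 and 0.30 for Cdc26 and 0.17, 0.19 and 0.23 for Cdc20.

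The comparisons with Ang II alone ask what blocking each receptor changed. In Ang II+Los × Ang II at 6 h 0 of the 10 APC genes passed, when 0.815% of all genes were higher and 1.18% lower. Their log2 fold changes lay between -0.11 for Anapc1 and 0.09 for Cdc26. The 95% interval was -0.08 to 0.26 for Cdc26, -0.12 to 0.16 for Cdc20, -0.14 to 0.15 for Anapc10 and -0.20 to 0.33 for Cdc27. The log2 fold changes of the other genes were 0.02 for Anapc2, 0.08 for Anapc4, 0.05 for Anapc5, 0.06 for Cdc16 and 0.03 for Cdc23.

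In Ang II+PD123319 × Ang II at 6 h 0 of the 10 passed in limma, when 3.88% of all genes were higher and 2.49% lower. The log2 fold changes ran from -0.13 for Cdc27 to 0.19 for Anapc2, and the 95% interval was -0.20 to 0.14 for Cdc26, -0.08 to 0.20 for Cdc20 and -0.22 to 0.07 for Anapc10. The other genes had -0.09 for Anapc1, 0.08 for Anapc4, 0.02 for Anapc5, -0.08 for Cdc16 and -0.00 for Cdc23. By the paired test that the series record names for these arrays, 0 of the 10 passed with losartan, when 4.57% of all genes did. With PD123319, when 8.71% of all genes passed, 1 of the 10 did, namely Cdc27, which was below Ang II on 4 of 4 slides. A difference that misses the threshold does not show that the groups were alike, and these intervals give the sizes still possible.

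At 3 h the same comparisons gave a single call. In Ang II+Los × Ang II, Anapc5, a scaffold subunit, fell by 0.24 on the log2 scale (SE 0.11; limma, adjusted p = 0.426) and 0 of the 9 rose, when 4.93% of all genes were higher and 6.09% lower. Its log2 signals were 12.88, 12.36, 12.13 and 12.53 in Ang II and 12.57, 11.96, 12.05 and 12.36 in Ang II+Los. All slides were lower with losartan, and the groups overlapped. With each array scaled to its 75th percentile the value was -0.09, and it missed the unadjusted threshold there, without any 1 replicate (-0.29 to -0.18), and with the slides left unpaired. Cdc26 had -0.43 (95% interval -0.97 to 0.11), with -1.56 on slide 2, where its Ang II+Los array was at 6.52. The other genes, which did not pass, had -0.03 for Anapc1, -0.12 for Anapc2, 0.01 for Anapc4, 0.20 for Anapc10, 0.18 for Cdc16, -0.04 for Cdc23 and -0.24 for Cdc20. In Ang II+PD123319 × Ang II 0 of the 9 passed, when 2.11% of all genes were higher and 0.902% lower. The series record's paired test gave 0 of the 9 too, when 4.04% of all genes passed it. There the log2 fold changes lay between -0.20 for Anapc4 and 0.08 for Anapc2, with 0.06 for Anapc1, -0.02 for Anapc5, -0.01 for Anapc10, 0.03 for Cdc16, 0.01 for Cdc23, -0.03 for Cdc26 and 0.01 for Cdc20.

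Both antagonist groups were also set against Control, and these comparisons share the Control arrays with Ang II × Control, so the values are given side by side only. In Ang II+Los × Control at 6 h 4 of the 10 genes rose and 0 fell, when 10.6% of all genes were higher and 11.4% lower. Cdc26 was at 8.19, 7.92, 8.55 and 8.19 in Ang II+Los, and its Control values lay between 7.35 and 8.08. Each slide was higher, by 0.11 to 0.60, although the Ang II+Los array of slide 2 lay within the Control range. The log2 fold change was 0.42 ± 0.08 (SE; limma, adjusted p = 0.0381). This was the one APC gene difference of the 95 tested to pass after adjustment, as 1.36% of all genes did in this comparison. The adjusted p was between 0.0565 and 0.343 when a replicate was left out, 0.999 with the slides left unpaired, and from 0.0286 to 0.541 over the other alternatives.

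Cdc27 was at 5.21, 5.38, 5.72 and 5.60 in Ang II+Los at 6 h. It was higher than Control by 0.43 ± 0.12 (SE; limma, adjusted p = 0.0814) on 4 of 4 slides, and had 0.07 with a normexp background, which did not pass. Anapc10 was higher by 0.19 ± 0.07 (adjusted p = 0.129) on 4 of 4 slides and Cdc20 by 0.19 ± 0.07 (adjusted p = 0.124) on 3 of 4. Anapc10 missed the unadjusted threshold without replicate 2 (0.14) or replicate 3 (0.19), and Cdc20 missed it without replicate 1, 2 or 4 (0.18, 0.17 and 0.15). Cdc20 also missed it by the series record's paired t-test. The 6 genes that did not pass had 0.06 for Anapc1, 0.02 for Anapc2, 0.20 for Anapc4, 0.04 for Anapc5, 0.19 for Cdc16 and 0.02 for Cdc23. The median of the 10 genes was 0.19, against -0.01 over all genes.

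In Ang II+PD123319 × Control at 6 h 2 of the 10 genes rose and 0 fell, when 10.9% of all genes were higher and 12.1% lower, and after adjustment 0 of the 10 and 1.38% of all genes passed. The arrays stood at 8.22, 7.72, 8.27 and 8.17 for Cdc26 and at 11.83, 10.57, 11.52 and 10.61 for Cdc20. Both genes were above Control on 4 of 4 slides, and both groups overlapped with Control. Cdc26 was higher by 0.30 ± 0.08 (SE; limma, adjusted p = 0.0700) and Cdc20 by 0.23 ± 0.07 (SE; limma, adjusted p = 0.0797). Both passed the unadjusted threshold without each replicate in turn, and neither did with the slides left unpaired. Cdc27 had 0.24 (95% interval -0.02 to 0.50), Anapc10 0.11 (-0.03 to 0.26) and Anapc1 0.08 (-0.08 to 0.23). The remaining values were 0.19 for Anapc2, 0.20 for Anapc4, -0.00 for Anapc5, 0.05 for Cdc16 and -0.01 for Cdc23.

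At 3 h, 1 APC gene differed from Control in each antagonist group. In Ang II+Los × Control 1 of the 9 rose and 0 fell, when 10.4% of all genes were higher and 11.3% lower. This was Anapc10, at 7.88, 8.06, 6.93 and 7.49 in Ang II+Los, with a log2 fold change of 0.48 ± 0.13 (SE; limma, adjusted p = 0.176). All slides were higher, slide 2 most, by 0.99, and without replicate 2 the value was 0.31. It did not pass with the slides left unpaired or by the series record's paired t-test. The 8 genes that did not pass had -0.04 for Anapc1, -0.02 for Anapc2, -0.10 for Anapc4, -0.18 for Anapc5, 0.76 for Cdc16, -0.23 for Cdc23, -0.15 for Cdc26 and -0.17 for Cdc20, and the Control array of slide 1 that set the Cdc16 value above also enters here.

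In Ang II+PD123319 × Control at 3 h 1 of the 9 fell and 0 rose, when 2.71% of all genes were higher and 4.87% lower. This was Anapc4, a scaffold subunit, which fell by 0.31 on the log2 scale (SE 0.11; limma, adjusted p = 0.606). The value rests on 15 arrays, since the Control spot of slide 2 had been set aside as an outlier. Its log2 signals were 11.56, 11.03 and 11.35 in Control on slides 1, 3 and 4, and 11.33, 10.74, 10.67 and 11.10 in Ang II+PD123319 on slides 1 to 4. The 3 slides with both arrays were lower, and the groups overlapped. It missed the unadjusted threshold without replicate 1, 3 or 4 (-0.34, -0.29 and -0.34), with the slides left unpaired (-0.35) and with a normexp background (-0.17). The 8 genes that did not pass had 0.05 for Anapc1, 0.18 for Anapc2, 0.03 for Anapc5, 0.27 for Anapc10, 0.61 for Cdc16, -0.18 for Cdc23, 0.24 for Cdc26 and 0.07 for Cdc20. In all 10 comparisons together, 15 of the 95 APC gene differences passed, 13 of them higher and 2 lower, and Anapc2, Cdc16 and Cdc23 passed in none. By the same rule 12.7% of all genes passed in Ang II × Control at 3 h and 21.5% at 6 h. In Ang II+Los × Ang II the shares at 3 h and 6 h were 11% and 1.99%. In Ang II+PD123319 × Ang II they were 3.01% and 6.37%. In Ang II+Los × Control they were 21.7% and 22%, and in Ang II+PD123319 × Control 7.58% and 22.9%. The total over the APC genes was not tested against these shares, so no excess over all genes is claimed.

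**Figure D3:**
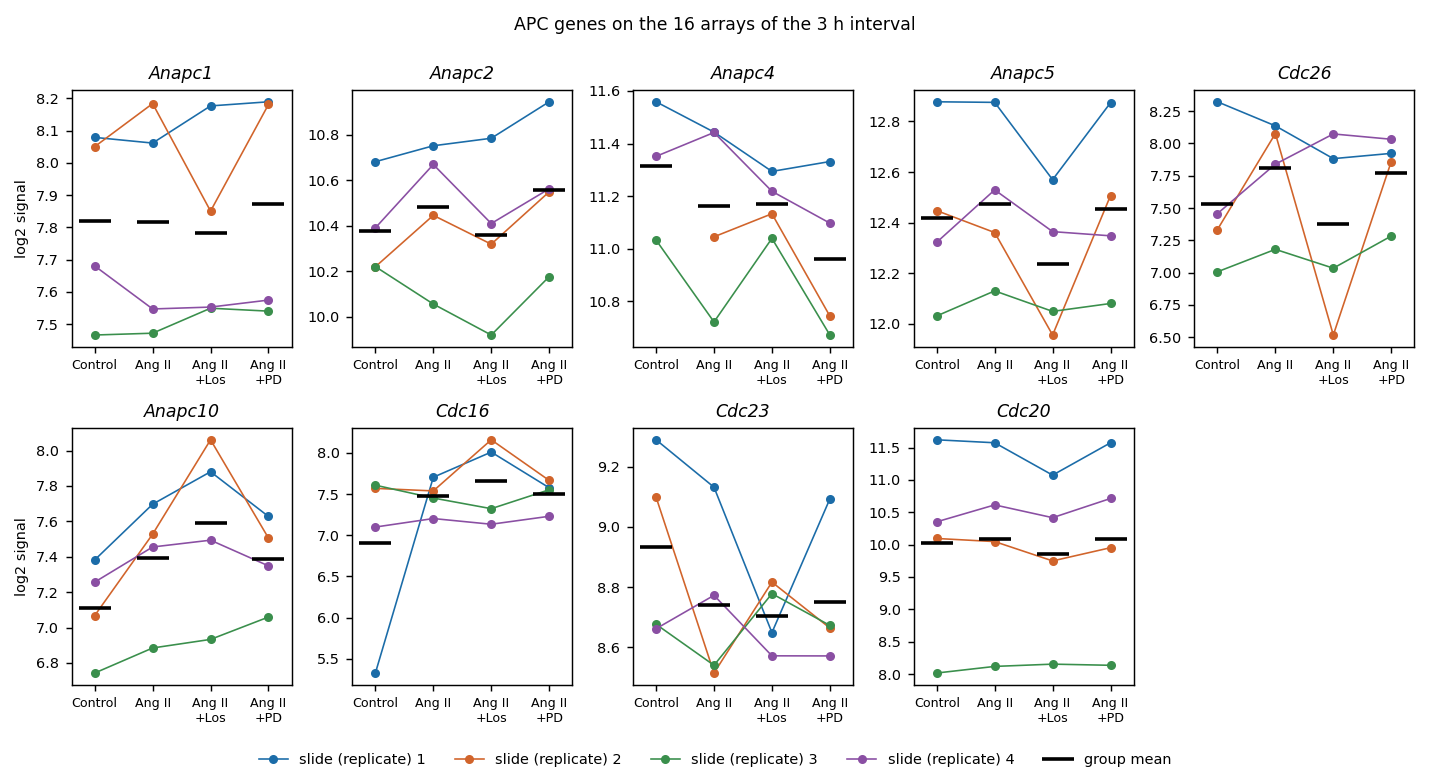
Log2 signal (vertical axes, one scale per gene) of the 9 APC genes kept at 3 h on the 16 arrays, by group, where lines join the arrays of a slide and black bars are group means. Cdc20 spans from 8.02 on slide 3 to 11.62 on slide 1, and the Control point of Cdc16 on slide 1 stands alone at 5.33.

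The slides differed more than the treatments for Cdc20, as they did for most APC genes. The Cdc20 mean over a slide ran from 8.11 on slide 3 to 11.46 on slide 1 at 3 h, a 10.2-fold range, while its 4 group means lay within 0.25. At 6 h the slide means covered 1.27, or 2.42-fold, and the group means 0.23. Of all genes 0.587% had a wider range between slides at 3 h, and 8.63% at 6 h. The other APC genes had ranges between slides of 0.40 to 0.94 at 3 h and 0.19 to 0.78 at 6 h. Their group means covered 0.09 to 0.76 at 3 h and 0.03 to 0.43 at 6 h. For each gene and time the range between slides was the larger, except for Cdc16 at 3 h (0.58 against 0.76). Over all genes the median range between slides was 0.66 at 3 h and 0.52 at 6 h. For the APC genes, Cdc20 included, this median was 0.70 and 0.40. How many of all genes differed more between slides than between groups was not counted.

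Genes whose products the APC removes were low on the same slide. At 3 h the median of the substrates tested, each centred on its own mean, was 1.29 on slide 1 and -1.82 on slide 3, and slide 3 was lowest for 15 of 15. The median of the inhibitors and spindle checkpoint genes was 1.01 on slide 1 and -1.36 on slide 3, and slide 3 was lowest for 9 of 10. For the APC genes these medians were 0.30 and -0.32, with slide 3 lowest for 7 of 9, and over all 13630 genes they were -0.02 and 0.03, with slide 3 lowest for 4194. Slides 1 and 2 were read in scan 1 and slides 3 and 4 in scan 2, and the substrates had 0.30 on slide 4. The cause of this spread was not tested.

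Genes around the APC were grouped by their role. In Ang II × Control 5.3% of all genes were higher and 7.4% lower at 3 h, and 10.6% and 10.9% at 6 h. Among other subunits and activators, Anapc7, Anapc11, Anapc13, Anapc15 and the activator Fzr1 were on the array, and 0 of the 5 passed in Ang II × Control at either time, with values between -0.12 for Fzr1 and 0.16 for Anapc15 at 6 h. Of the ubiquitin-conjugating enzymes Ube2c, Ube2s and Ube2d1, 0 of 3 passed at either time. The largest of their values at 6 h was 0.30 for Ube2d1 (95% interval -0.06 to 0.65).

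Of the inhibitors and spindle checkpoint genes 6 of 10 rose and 1 fell in Ang II × Control at 6 h, when 10.6% of all genes were higher and 10.9% lower, and the median was 0.21. At 3 h 5 of 10 rose and 0 fell, when 5.3% of all genes were higher and 7.4% lower, and the median was 0.28. Trip13, an ATPase that remodels Mad2, was higher by 0.47 ± 0.10 at 6 h (SE; limma, adjusted p = 0.0730), and Mad2l1bp, its adaptor, by 0.31 ± 0.08 (adjusted p = 0.104). Mad2l2, a relative of Mad2, fell by 0.23 on the log2 scale (SE 0.07; limma, adjusted p = 0.114). Mad2l1, the checkpoint protein that binds Cdc20, was higher by 0.61 ± 0.22 at 3 h and by 0.24 ± 0.09 at 6 h. It was so on 4 of 4 slides at both times, but Mad2l1 was named after its values were seen. At 3 h the lowest adjusted p of this list in limma was 0.322. The counts of 5 at 3 h and 7 at 6 h became 0 and 1 with the slides left unpaired, when 2.6% and 4.02% of all genes passed.

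Of the substrates 8 of 16 rose at 6 h and 6 of 15 at 3 h, and 0 fell at either time, with medians of 0.18 and 0.31. Over all genes 10.6% were higher at 6 h and 5.3% at 3 h. Aurkb, a mitotic kinase, was higher by 0.41 ± 0.09 at 6 h (SE; limma, adjusted p = 0.0802) and by 0.39 ± 0.13 at 3 h. Cdc6, which loads the replicative helicase, was higher by 0.52 ± 0.17 and 0.84 ± 0.29 at the same times, and Nek2, a centrosomal kinase, by 0.35 ± 0.11 at 6 h. Ccnb1, cyclin B1, was higher by 0.23 ± 0.08 at 6 h and 0.35 ± 0.16 at 3 h. Pttg1, securin, had -0.01 (95% interval -0.19 to 0.16) at 6 h. Ccnb1 and Pttg1 were named after their values were seen. Among the substrates the lowest adjusted p in limma was 0.332 at 3 h and 0.0802 at 6 h. With the slides left unpaired 0 substrates passed at either time, and 4.02% of all genes did at 6 h and 2.6% at 3 h.

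In the SCF ligase, the other main ubiquitin ligase of the cell cycle, 1 of 7 genes passed at each time in Ang II × Control. By the same rule 5.3% of all genes were higher and 7.4% lower at 3 h, and 10.6% and 10.9% at 6 h. The SCF gene that passed was higher. This was Skp2, the subunit that recognises the inhibitor p27. It had 0.52 ± 0.19 at 3 h (SE; limma, adjusted p = 0.348) and 0.31 ± 0.09 at 6 h (SE; limma, adjusted p = 0.117).

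The same groups of genes were counted in the antagonist groups. Over all genes, 10.4% were higher and 11.3% lower in Ang II+Los × Control at 3 h, and 10.6% and 11.4% at 6 h. The shares in Ang II+PD123319 × Control were 2.71% and 4.87% at 3 h, and 10.9% and 12.1% at 6 h. In Ang II+Los × Control at 6 h 6 of 10 inhibitors and checkpoint genes and 9 of 16 substrates rose, and 0 of either fell. After adjustment Trip13 (0.53 ± 0.10, adjusted p = 0.0386), Mad2l1bp (0.39 ± 0.08, adjusted p = 0.0468) and Aurkb (0.52 ± 0.09, adjusted p = 0.0368) passed, as 1.36% of all genes did. In Ang II+PD123319 × Control at 6 h 4 of 10 and 9 of 16 rose, and 0 of these genes passed after adjustment, when 1.38% of all genes did. At 3 h 2 of 10 checkpoint genes and 5 of 15 substrates rose in Ang II+Los × Control, and 3 of 10 and 2 of 15 in Ang II+PD123319 × Control, with 0 of either falling. Of the conjugating enzymes 1 of 3 passed in Ang II+Los × Control at each time. It was Ube2d1, which fell by 0.77 on the log2 scale at 3 h (SE 0.32; limma, adjusted p = 0.208), on 2 of 4 slides, and rose by 0.41 ± 0.16 at 6 h (adjusted p = 0.167), on 4 of 4. In Ang II+PD123319 × Control 0 of 3 passed at either time, and 0 of 5 other APC subunits and activators passed in either antagonist group. At 3 h 5 of 7 SCF genes rose in Ang II+Los × Control, led by Skp2 at 0.62 ± 0.19 (SE; limma, adjusted p = 0.176), and 0 of 7 in Ang II+PD123319 × Control, and at 6 h these counts were 2 and 1. Against Ang II alone, Skp1 with losartan at 3 h (0.36 ± 0.16) and Mad2l2 with PD123319 at 6 h (0.18 ± 0.07) were the only genes of the 5 lists to pass, both higher. Over all genes 4.93% and 3.88% were higher in these comparisons.

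**Figure D4:**
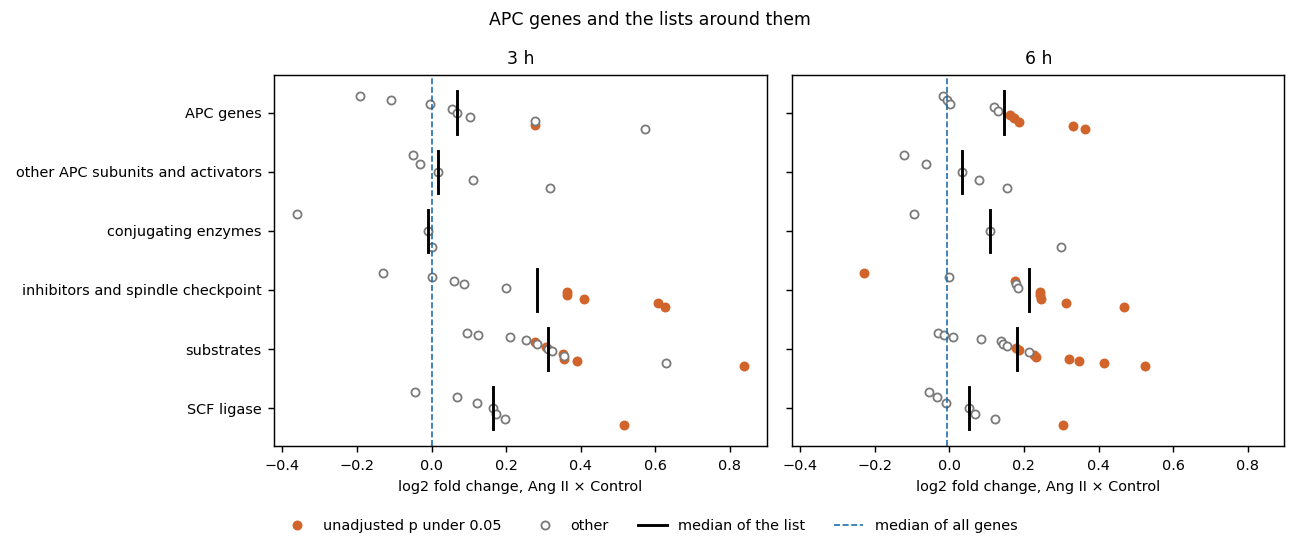
Log2 fold change in Ang II × Control (horizontal axis) of each gene of the APC and of 5 lists around it, at 3 h and 6 h, where filled points have an unadjusted p under 0.05, black bars are list medians and the dashed line is the median of all genes. At 6 h the medians run from 0.03 for the other APC subunits to 0.21 for the inhibitors and checkpoint genes, and the point left of the others in that list is Mad2l2.

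Genes with a pattern like those of Cdc20 and Cdc26 were looked for over the 32 arrays, after each gene had been centred on its slide, among 6829 genes. The arrays share slides, and the values are a description. Closest to Cdc20 were Camk2g (r = 0.83, Spearman rho = 0.63), Cpsf2 (r = 0.78, rho = 0.59) and Cdc42ep1 (r = 0.78, rho = 0.70). Closest to Cdc26 were Mboat1 (r = 0.90, rho = 0.77), Herc3 (r = 0.88, rho = 0.72) and Id2 (r = 0.86, rho = 0.76). Without the 2 arrays farthest from the median, r was between 0.65 and 0.72 for the first set and between 0.69 and 0.81 for the second.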

How the data were processed

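RNA of C6 cells was hybridised to 32 Agilent single-dye rat arrays. The authors deposited the spot intensity of each array as written by Feature Extraction 9.5.3.1, background-subtracted and with no scaling between arrays, and a deposited log2 table that equals the log2 of this intensity in 100% of 561803 values. The scanner files were used. At 3 h, dim spots carry no surrogate and the error of the signal was put in its place. Spots with their own outlier flag were left out, spots of a probe averaged, and probes with over 2 gaps left out. Each time was normalized apart by cyclic loess (3 iterations, span 0.7). Probes well above background on every array of at least 1 group were kept and averaged per gene. limma 3.58.1 (R 4.3.3) was fitted to 16 arrays per time with the slide as a block, and p-values were adjusted over all genes by the Benjamini-Hochberg method. A call is an unadjusted p under 0.05, the threshold of the paired t-tests that the series record names. The number of arrays limits the precision.

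Same-numbered arrays of a time deviated together, with correlations of 0.15 to 0.92 at 3 h and 0.55 to 0.83 at 6 h. Between different numbers the correlations were -0.72 to 0.37 and -0.66 to 0.13. Within a time a number marks a shared slide, and 0 pairs of arrays were identical. The genes and lists were chosen with earlier results of these data known. All 10 APC genes are named in each comparison, and of each list up to 3 genes with the lowest p in a comparison, with Pttg1, Ccnb1, Mad2l1, Fzr1 and the other subunits added after their values were seen. The names Anapc15, Cks1b and Rbfox3 were found by a RefSeq synonym, and Anapc16 and Fbxw7 were not used here. The method was tested on simulated data. The alternatives were no block, the record's paired t-test, 75th percentile scaling, quantile normalization, a normexp background (offset 50), a strict filter and none, the 8 arrays of a comparison, the deposited values, each probe, and each replicate left out. Promoters and their coordinates are RefSeq's (GRCr8). Figures used Python with matplotlib.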

Additional observations from a re-analysis of the deposited data

Results flagged for a closer look

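In 4 of the 75 groups of 4 arrays examined over the APC genes, 1 array stood far from the other 3, and about 1 group in 20 would do so by chance. At 6 h, Anapc10 was 7.42 on the Control array of replicate 2, with the other Control arrays between 7.75 and 7.78, and 7.57 on the Ang II array of replicate 2, with the others between 7.92 and 7.99. Both low arrays lie on the same slide. Anapc4 was 10.31 on the Control array of replicate 2 at 6 h, with the others between 11.14 and 11.23. Cdc23 was 9.36 on the Ang II+PD123319 array of replicate 1 at 6 h, with the others between 9.10 and 9.13. The cause was not tested.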

How the results depend on the processing

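Percentages in brackets are the shares of all genes past the threshold under the same setting. Without the replicate block (the slides left unpaired), the number of APC genes past the threshold was 0 (2.6%) in Ang II × Control at 3 h and 0 (4.02%) at 6 h. It was 0 (2.52%) in Ang II+Los × Ang II at 3 h, and 0 (4.82%) and 1 (4.15%) in Ang II+Los × Control at 3 h and 6 h. In Ang II+PD123319 × Control it was 0 (0.895%) and 0 (5.49%), and 1 of the 15 called differences kept its call. With the paired t-test of the series record the number was 0 (4.47%) in Ang II+Los × Control at 3 h and 1 (8.71%) in Ang II+PD123319 × Ang II at 6 h. It was 2 (9.15%) in Ang II+PD123319 × Control at 3 h, and 12 of the 15 called differences kept their call. At 3 h, Ang II × Control and Ang II+Los × Ang II had 0 with 75th percentile scaling (12.6% and 10.8%) and with quantile normalization (13.8% and 10.5%). Ang II+Los × Control had 2 (21.2%) at 3 h with quantile normalization. With the normexp background Ang II × Control had 0 (12.5%) at 3 h and 2 (18.7%) at 6 h. Ang II+Los × Control then had 2 (21.4%) at 3 h and 2 (20.3%) at 6 h. With this background Ang II+PD123319 × Ang II had 1 (6.89%) at 6 h. Ang II+PD123319 × Control had 0 (7.75%) at 3 h. Ang II+PD123319 × Control at 3 h had 2 (7.8%) with the strict filter and 3 (9.69%) with none. With the 8 arrays of a comparison alone, Ang II × Control had 3 (15.2%) at 6 h, Ang II+Los × Ang II 0 (3.02%) at 3 h and Ang II+Los × Control 2 (12.5%) at 6 h. Ang II+PD123319 × Control then had 2 (11.5%) at 3 h and 1 (11.5%) at 6 h. With the deposited values Ang II × Control and Ang II+PD123319 × Control had 0 at 3 h (12.4% and 7.42%), with 7 APC genes tested. The cause of these changes was not tested.

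With each replicate left out in turn, the count ranged from 0 to 0 in Ang II × Control at 3 h and from 2 to 3 at 6 h, from 0 to 1 in Ang II+Los × Ang II at 3 h, from 1 to 2 and from 2 to 4 in Ang II+Los × Control at 3 h and 6 h, from 0 to 1 in Ang II+PD123319 × Ang II at 6 h, and from 0 to 1 and from 2 to 3 in Ang II+PD123319 × Control at 3 h and 6 h. Over all genes the shares were 5.73% to 13.4% and 11.4% to 23.2% in Ang II × Control at 3 h and 6 h. They were 2% to 13.6% in Ang II+Los × Ang II at 3 h and 2.74% to 9.73% in Ang II+PD123319 × Ang II at 6 h. In Ang II+Los × Control they were 7.53% to 25.1% at 3 h and 11.7% to 24.9% at 6 h. In Ang II+PD123319 × Control they were 4.39% to 7.55% and 11.7% to 26.3%. Of 194 values of the 15 called differences under the alternatives, 131 stayed past the threshold, 63 did not and 0 changed sign. Cdc26 in Ang II+Los × Control at 6 h kept its call under every alternative run. The difference between times gave 0 calls under every alternative run for it. Signal over background kept Cdc27 out of the tests at 3 h.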
